A study of Homo sapiens with 10 samples.

Results

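SR proteins, heterogeneous nuclear ribonucleoproteins (hnRNPs) and a small set of tissue-restricted splicing regulators were followed across 4 human blood cancer lines and 6 pools of those lines. Members were taken by symbol: every SRSF gene, every HNRNP gene other than pseudogenes, and ESRP1, RBFOX2, PTBP1, PTBP2, PTBP3, CELF1, CELF2, MBNL1 and MBNL3. This gave 41 of the 20591 genes in the table, made up of 11 SRSF genes, 21 HNRNP genes, 3 PTBP genes and 6 others. ESRP2, which the same rule names, was not analysed here. Single-cell profiles of the same lines belong to the study and were not used here.

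Bulk RNA was sequenced from 6 mixtures, each labelled as a mixture of HL60, K562, SUDHL4 and THP1, and from each line on its own. HL60 is a promyelocytic leukaemia line, K562 comes from chronic myeloid leukaemia and has erythroid features, SUDHL4 is a lymphoma of germinal-centre B cells, and THP1 is a leukaemia of the monocytic lineage. All samples were labelled wild type, untreated and day 0, and all cells were grown in the same medium with 10% serum. Each group had 1 library, so there was no replicate check, no test was run between groups, and differences were judged by size, by counting error and by the share of all genes that passed the same size. Each line is a single cultured population and stands for that culture, not for a cell type. The proportions mixed are not given in the sources used here.

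Depth ran from 24985570 reads assigned to genes in mixture 5 to 36607612 in mixture 1. Values are the authors' normalised reads on the CPM scale, and 1 read was worth 0.0273 to 0.0396 CPM. Marker genes fitted the labels: MPO stood at 15645 CPM in HL60 and at most 9.88 CPM in the other 3 lines, HBE1 at 2755 CPM in K562, MS4A1 at 2669 CPM in SUDHL4 and TGFBI at 566 CPM in THP1. The granule genes AZU1 and ELANE, listed as HL60 markers, were higher in THP1. Of the markers of other cell types, CD3E, CD3G and COL1A1 stayed under 5 CPM in every library, while the collagen gene COL1A2 reached 21.9 CPM in K562.

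SR proteins carry RNA recognition motifs and a domain rich in arginine and serine, and they commonly bind exons and recruit the splicing machinery to them. Many hnRNPs coat nascent RNA and often repress the exons they bind, so the relative amounts of both families help set which exons are kept. PTB, CELF, MBNL and RBFOX proteins bind short motifs in or near regulated exons and switch tissue-specific splicing programmes, several of them known from muscle, brain and epithelium.

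Most members differed by less than 1 on the log2 scale between the 4 lines. Of the 41 members, 38 reached 5 CPM in at least 1 line, and SRSF12, PTBP2 and ESRP1 did not. A member was called different where its log2(CPM + 1) in a line lay at least 1 above or below the mean of the other 3 lines. By this rule 8 of the 38 were called, 21.1%, whereas 64.2% of the 11717 genes at the same minimum were called. The members' median span, the highest line minus the lowest on the log2(CPM + 1) scale, was 0.86, against 1.69 for all genes at the minimum. Among genes with a mean of at least 100 CPM over the lines, the median span was 0.72 for 29 members and 1.29 for 2062 genes. Counted by direction, 5 members were lower in THP1 (background 18.0%), 2 in K562 (19.3%), 1 in HL60 (18.8%) and 1 in SUDHL4 (23.5%), and 3 were higher in THP1 (19.3%), 2 in HL60 (14.3%), 2 in SUDHL4 (15.6%) and 1 in K562 (19.7%). A span of at least 1 was reached by 12 members, 31.6%, against a background of 76.9%.

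THP1 was the line with the lowest level for 25 of the 38 members, where 29.8% of all genes had their lowest level in THP1. The highest level fell in HL60 for 14 members, in K562 for 14, in SUDHL4 for 7 and in THP1 for 3, against backgrounds of 24.8%, 30.2%, 24.3% and 20.7%. The median difference of a member from the mean of the other lines was -0.39 on the log2 scale in THP1, where the median over all genes was -0.16. The lowest level fell in HL60 for 3 members, in K562 for 6 and in SUDHL4 for 4, against backgrounds of 21.0%, 23.1% and 26.0%. In HL60 the median difference was 0.31 for members and 0.08 for all genes, in K562 0.22 and 0.07, and in SUDHL4 0.01 and -0.10. Among genes with a mean of at least 100 CPM the gaps were smaller in HL60 and THP1: the median difference in HL60 was 0.31 for 29 members and 0.29 for 2062 genes, and in THP1 -0.43 for members and -0.29 for all. THP1 was the lowest line for 21 of these 29 members, 72.4%, and for 41.2% of the genes. THP1 held the lowest level for 20 to 25 of the 38 under 3 other scalings of the libraries, with backgrounds between 23.4% and 27.9%. The deposited values summed to 1108151 in HL60 and to between 976427 and 997866 in the other lines. Under total-read, housekeeping and median-of-ratios scaling the median difference of members in HL60 was 0.14, 0.02 and 0.21, and that of all genes -0.08, -0.19 and -0.01. The count by highest line was not repeated under these scalings. In bulk samples fewer expressing cells and less of a gene's RNA per cell cannot be told apart, and a line's total RNA per cell was not measured.

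**Figure D1:**
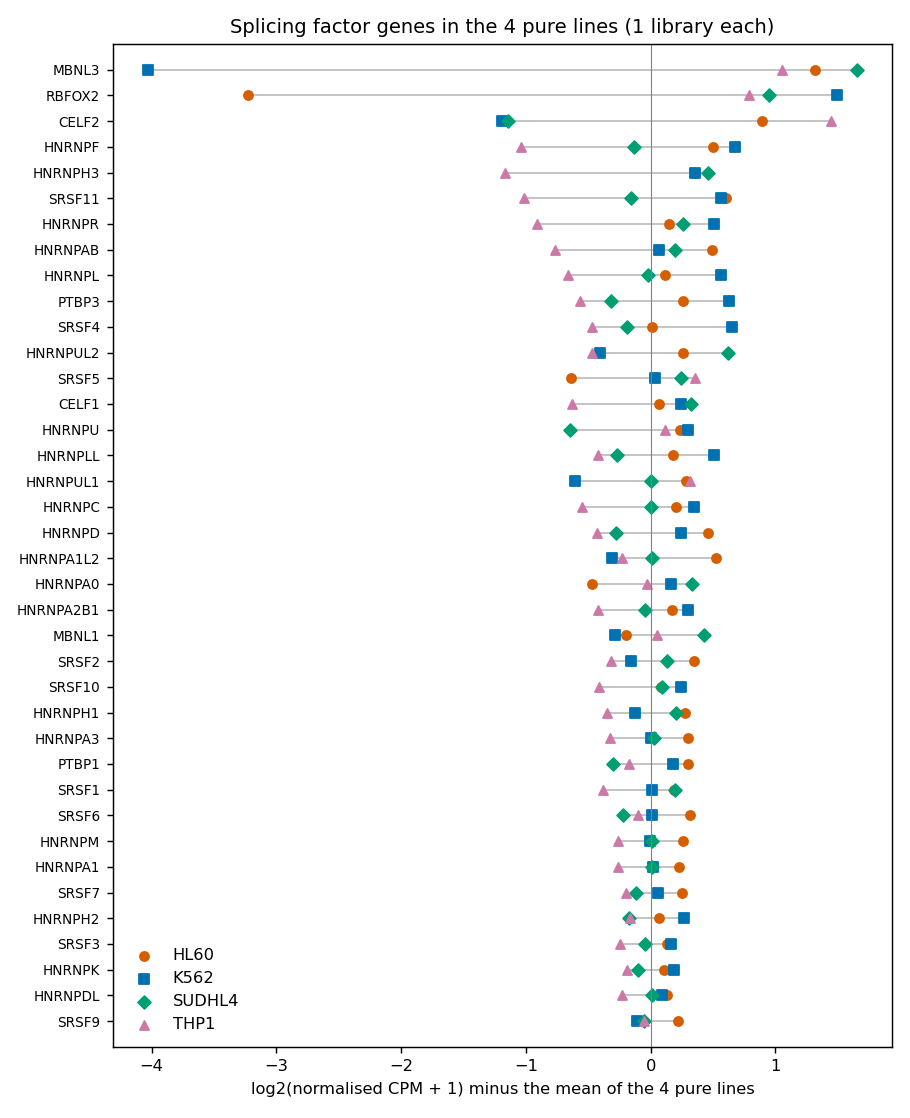
Level of each of the 38 members at the minimum in each line, as log2(CPM + 1) minus the mean of the 4 lines, ordered by span (1 library per line, no error bars). MBNL3 in K562 and RBFOX2 in HL60 lie far to the left, and the THP1 triangle is the leftmost point for 25 of the 38 genes.

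Summed over its 11 genes, the SRSF family reached 2536 CPM in HL60, 2375 CPM in K562, 2231 CPM in SUDHL4 and 1833 CPM in THP1. The 21 HNRNP genes summed to 13264 CPM in HL60, 12538 CPM in K562, 10941 CPM in SUDHL4 and 8933 CPM in THP1. As a share of reads, HNRNP genes took from 0.906% in THP1 to 1.28% in K562. THP1 had the lowest sum of both families under the deposited values and under each of 3 other scalings. The line with the highest sum was not stable: for SRSF it was HL60 under 2 scalings, K562 under total reads and SUDHL4 under housekeeping scaling. In the 6 mixtures the SRSF sum lay between 2042 and 2417 CPM and the HNRNP sum between 10201 and 11983 CPM.

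Promoter sequence was available from RefSeq (GRCh38.p14) for 37 of the 41 members. The 4 shown are the windows of MBNL3, near absent in K562, of HNRNPF and HNRNPH3, called lower in THP1, and of SRSF3, nearly even, each the 250 bases before the outermost listed start. The files were made on hg19, so no coordinate of theirs is mixed with these, and which start each line uses was not measured. MBNL3 lies on the minus strand with a window at chrX:132490036-132490285, HNRNPF on the minus strand at chr10:43408858-43409107, HNRNPH3 on the plus strand at chr10:68331443-68331692 and SRSF3 on the plus strand at chr6:36594112-36594361. Capitals mark matches, on either strand, to the CCAAT box, to the GC box GGGCGG, to the E-box CACGTG, or to the TATA motif TATAAA.
MBNL3: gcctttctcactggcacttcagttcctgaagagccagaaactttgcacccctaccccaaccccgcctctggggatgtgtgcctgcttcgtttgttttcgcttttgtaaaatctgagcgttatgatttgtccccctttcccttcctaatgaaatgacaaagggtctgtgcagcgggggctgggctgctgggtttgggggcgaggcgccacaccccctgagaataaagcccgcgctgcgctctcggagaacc
HNRNPF: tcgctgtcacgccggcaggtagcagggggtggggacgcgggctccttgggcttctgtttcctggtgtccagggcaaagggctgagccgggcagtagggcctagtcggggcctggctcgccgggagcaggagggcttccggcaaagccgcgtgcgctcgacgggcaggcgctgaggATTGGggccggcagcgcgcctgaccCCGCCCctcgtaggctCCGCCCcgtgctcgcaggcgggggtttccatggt
HNRNPH3: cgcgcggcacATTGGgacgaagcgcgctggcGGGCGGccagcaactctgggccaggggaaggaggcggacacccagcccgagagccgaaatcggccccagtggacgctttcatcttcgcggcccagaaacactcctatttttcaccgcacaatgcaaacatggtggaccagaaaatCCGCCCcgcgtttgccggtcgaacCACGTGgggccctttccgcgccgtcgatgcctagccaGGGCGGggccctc
SRSF3: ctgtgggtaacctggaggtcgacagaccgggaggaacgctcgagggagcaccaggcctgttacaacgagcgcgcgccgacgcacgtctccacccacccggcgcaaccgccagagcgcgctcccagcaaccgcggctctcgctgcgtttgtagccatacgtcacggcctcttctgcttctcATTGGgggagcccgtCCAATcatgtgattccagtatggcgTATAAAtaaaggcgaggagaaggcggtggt
MBNL3 had no match and 11 CpG sites, HNRNPF had 1 CCAAT and 2 GGGCGG with 25 CpG sites, HNRNPH3 had 1 CCAAT, 3 GGGCGG and 1 CACGTG with 27, and SRSF3 had 2 CCAAT and 1 TATAAA with 26. Among the 37 windows 43.2% held CCAAT, 70.3% GGGCGG, 16.2% CACGTG and 10.8% TATAAA, against 33.0%, 42.2%, 6.46% and 11.2% of 27305 RefSeq windows of the same length. The median was 26 CpG sites per member window and 10 per RefSeq window. The RefSeq windows were not limited to protein-coding or expressed genes, whereas every member is protein-coding and most were expressed. Windows of genes matched for type or level were not compared, so these shares describe the members and show no trait particular to splicing genes.

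Among SR proteins, 1 of the 10 at the minimum was called. It was SRSF11, an SR-like protein of the spliceosome, at 60.0 CPM in THP1 and 187, 182 and 109.9 CPM in HL60, K562 and SUDHL4. Genes lower in THP1 by this rule made up 18.0% of all genes tested. HL60 and K562 differed by less than counting error, SUDHL4 was lower than both, and THP1 was the lowest. Its level was 110.3, 126, 126, 106, 102 and 121 CPM in mixtures 1 to 6, inside the range of the lines in all 6 pools. The highest line, HL60, exceeded THP1 3.12-fold (95% counting interval 2.96 to 3.28).

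SRSF3, the smallest SR protein by the usual classification and the SRSF gene with the highest level, was nearly even, at 528 CPM in HL60, 541 in K562, 467 in SUDHL4 and 406 in THP1. It had 460.0, 529, 448, 505, 490.1 and 520.4 CPM in mixtures 1 to 6. Per kilobase of exon SRSF1, which binds exonic enhancers, had the highest SR level, a mean of 138 CPM per kb over the lines. SRSF4 showed a span of 1.13 without a call: it reached 139.6 CPM in K562, against 88.9, 77.4 and 63.4 CPM in HL60, SUDHL4 and THP1. Its mixture values were 87.4, 92.7, 90.8, 76.3, 105 and 108 CPM in mixtures 1 to 6. The smallest span of any member was that of SRSF9, 0.33, but its exons overlap those of GATC on the other strand over 1729 bases, so reads from the pair may not be separated. SRSF5 was the SR gene with its lowest level in HL60, 62.2 CPM against 99.5 to 125 CPM elsewhere; its difference was -0.85, and it passed the rule under total-read scaling (-1.01) and housekeeping scaling (-1.13). SRSF12, a splicing repressor of the family, stayed below the minimum, with 0.779 CPM in THP1, 0.687 CPM in HL60 and no read in K562 or SUDHL4, where 3 reads, the limit that a count of 0 allows, equal 0.0847 and 0.110 CPM.

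Of the 21 hnRNP genes 4 were called, 19.0%, and each was lower in THP1. That share is near the 18.0% of all genes called lower in THP1, and calls in any line covered 64.2% of genes. HNRNPF, which binds G-rich tracts, stood at 202 CPM in THP1, against 586 in HL60, 663 in K562 and 378 in SUDHL4. SUDHL4 thus lay between THP1 and the pair of HL60 and K562, and the HNRNPF window is printed above. HNRNPH3, a small relative of HNRNPF and HNRNPH1, stood at 79.3 CPM in THP1 and between 229 and 247 CPM in the other 3 lines. HNRNPH3 in HL60 (229 CPM) and K562 (229.8 CPM) differed by less than counting error, and HL60 exceeded THP1 2.89-fold. THP1 alone stood apart for HNRNPH3, and its other 3 lines lay close together. HNRNPR stood at 111 CPM in THP1, against 232, 300.0 and 252 CPM in HL60, K562 and SUDHL4. HNRNPAB stood at 299.6 CPM in THP1, against 718, 535 and 584 CPM in HL60, K562 and SUDHL4. The difference of HNRNPAB, -1.02, lay close to the threshold, and it was -0.96, -0.84 and -0.82 under total-read, housekeeping and median-of-ratios scaling, where it was not called. The other 3 passed under every scaling tried.

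In the pools HNRNPF had 421, 435, 412, 331, 405 and 497 CPM in mixtures 1 to 6. HNRNPH3 had 185, 179.9, 165, 209, 163 and 205 CPM in mixtures 1 to 6. HNRNPR had 186, 178, 198, 210.1, 181 and 218 CPM in mixtures 1 to 6, and HNRNPAB had 530.4, 662, 440.2, 602, 487 and 535 CPM in mixtures 1 to 6. All 4 lay between their levels in the pure lines in every mixture.

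**Figure D2:**
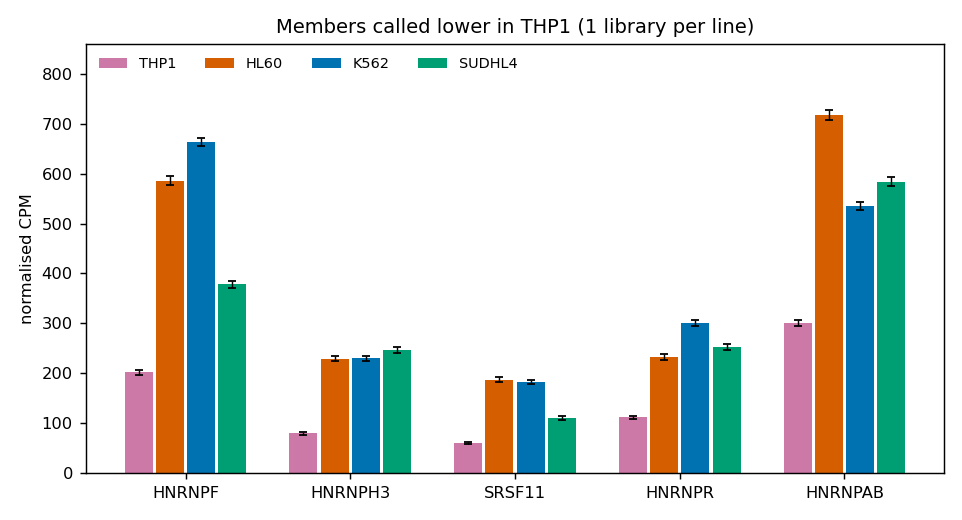
Levels in CPM of the 5 members called lower in THP1, in the 4 pure lines (1 library per line, error bars are 95% counting intervals). The THP1 bar is the lowest of the 4 for each gene, from 60.0 CPM for SRSF11 to 299.6 CPM for HNRNPAB.

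Other hnRNPs varied less. HNRNPA1, which represses exons and was the highest member, had 3252 CPM in HL60, 2815 in K562, 2802 in SUDHL4 and 2320.0 in THP1. Per kilobase it averaged 549 CPM, followed by HNRNPAB at 249 and HNRNPK at 170.5. HNRNPA1 in the pools had 2695, 2981, 2281, 2963, 2621 and 2882 CPM in mixtures 1 to 6, with mixture 3 below all 4 lines. That place refers to the deposited scale, on which mixture 3 had the lowest sum of any library, 909942. HNRNPA1 and the retrocopy HNRNPA1L2 (9.27 CPM in HL60 and 4.79 to 6.22 CPM in the other lines) share sequence with pseudogenes, so their split of reads is uncertain. HNRNPK and HNRNPDL had spans of 0.37 and 0.36.

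A further 2 hnRNPs had spans of at least 1 with no call. HNRNPL, which binds CA-rich RNA, had 202 CPM in K562, 148 in HL60, 134 in SUDHL4 and 85.4 in THP1. Its levels were 111, 117, 140.4, 110.1, 134 and 161 CPM in mixtures 1 to 6. HNRNPUL2 had 102 CPM in SUDHL4, 78.9 in HL60, 49.4 in K562 and 47.1 in THP1, and the last pair did not separate beyond counting error. Its levels were 59.9, 75.8, 49.9, 89.0, 52.0 and 64.3 CPM in mixtures 1 to 6. HNRNPUL2 shares 2391 exon bases on the same strand with HNRNPUL2-BSCL2, at most 0.45 CPM in the lines, so its reads may not all be counted. HNRNPU, a scaffold protein of the nucleus, had its lowest level in SUDHL4, 438 CPM against 744 to 842 CPM elsewhere, but 3502 of its exon bases overlap COX20 on the other strand. HNRNPUL1 was lowest in K562, 347 CPM against 528 to 656 CPM in the other lines.

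PTBP1, the pyrimidine tract binding protein of most cells, was present in every line, at 671 CPM in HL60, 616 in K562, 443 in SUDHL4 and 482 in THP1. It had 596, 561, 522, 444, 551 and 539 CPM in mixtures 1 to 6. PTBP3, a paralog expressed in blood cells, spanned 1.19, with 338 CPM in K562, 262 in HL60, 175 in SUDHL4 and 148 in THP1. Its mixture levels were 188, 223, 244, 199.9, 226 and 262 CPM in mixtures 1 to 6. PTBP2, the paralog of neurons, stayed below the minimum at 1.22, 2.41, 3.10 and 1.12 CPM in HL60, K562, SUDHL4 and THP1. SUDHL4 and K562 did not separate beyond counting error for PTBP2, nor did HL60 and THP1, while K562 exceeded HL60 1.99-fold. PTBP2 had 2.00, 2.36, 1.94, 3.67, 2.76 and 2.41 CPM in mixtures 1 to 6.

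Of the 5 CELF, MBNL and RBFOX genes at the minimum 3 were called, 60.0%, near the 64.2% of all genes. MBNL3, a muscleblind protein that binds the same kind of GC-containing motif as MBNL1, was near absent from K562, at 0.0424 CPM (1 read), against 41.4 CPM in HL60, 52.5 in SUDHL4 and 34.3 in THP1. K562 lower calls covered 19.3% of genes. RBFOX2, which binds UGCAUG, was near absent from HL60, at 0.352 CPM (10 reads), against 34.6 CPM in K562, 23.4 in SUDHL4 and 20.9 in THP1; HL60 lower calls covered 18.8% of genes. Taken from the whole reads, without the offset of 0.5 reads that the deposited values carry, the ratio of the highest line to the near-absent one was 1857 (95% counting interval 333 to 73400) for MBNL3 and 103 (55.9 to 216) for RBFOX2. A gene absent from 1 line also counts as higher in the other 3 by the rule, so its calls in those lines repeat the same difference.

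CELF2, a binder of GU-rich RNA with high levels in blood and brain, followed another pattern. It stood at 167 CPM in THP1 and 113 CPM in HL60, against 26.9 CPM in SUDHL4 and 25.9 CPM in K562. HL60 and THP1 lay above K562 and SUDHL4, THP1 exceeded K562 6.42-fold (5.99 to 6.90), and SUDHL4 and K562 did not separate beyond counting error. THP1 higher and SUDHL4 lower calls covered 19.3% and 23.5% of genes. MBNL1, by contrast, spanned 0.72, with 325 CPM in SUDHL4, 250.1 in THP1, 210.4 in HL60 and 197 in K562, and 1140 of its exon bases overlap an antisense gene. CELF1 had 68.9 CPM in SUDHL4, 65.0 in K562, 57.6 in HL60 and 35.1 in THP1. ESRP1, an epithelial splicing regulator, was under the minimum: 2.89 CPM in THP1 (94 reads), 1 read in SUDHL4 and none in HL60 or K562, with 33.9 times the level in THP1 that 3 reads would give in K562. The exact 95% lower limit of the ratio of THP1 to K562 was 27.0.

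Across the pools MBNL3 had 28.6, 25.1, 27.1, 48.2, 17.5 and 22.9 CPM in mixtures 1 to 6. RBFOX2 had 15.3, 8.77, 21.4, 16.8, 21.7 and 20.5 CPM in mixtures 1 to 6, and CELF2 had 80.5, 74.1, 97.2, 81.7, 65.6 and 68.7 CPM in mixtures 1 to 6. MBNL3 was highest in mixture 4, which had an estimated 0.02% of K562, and lowest in mixture 5, with an estimated 53.8% of K562. MBNL1 had 219, 215, 224, 325, 214 and 258 CPM in mixtures 1 to 6, CELF1 had 45.2, 62.2, 47.3, 57.9, 57.4 and 64.3 CPM in mixtures 1 to 6, and ESRP1 had 0.641, 0.812, 1.11, 1.46, 1.31 and 1.03 CPM in mixtures 1 to 6.

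**Figure D3:**
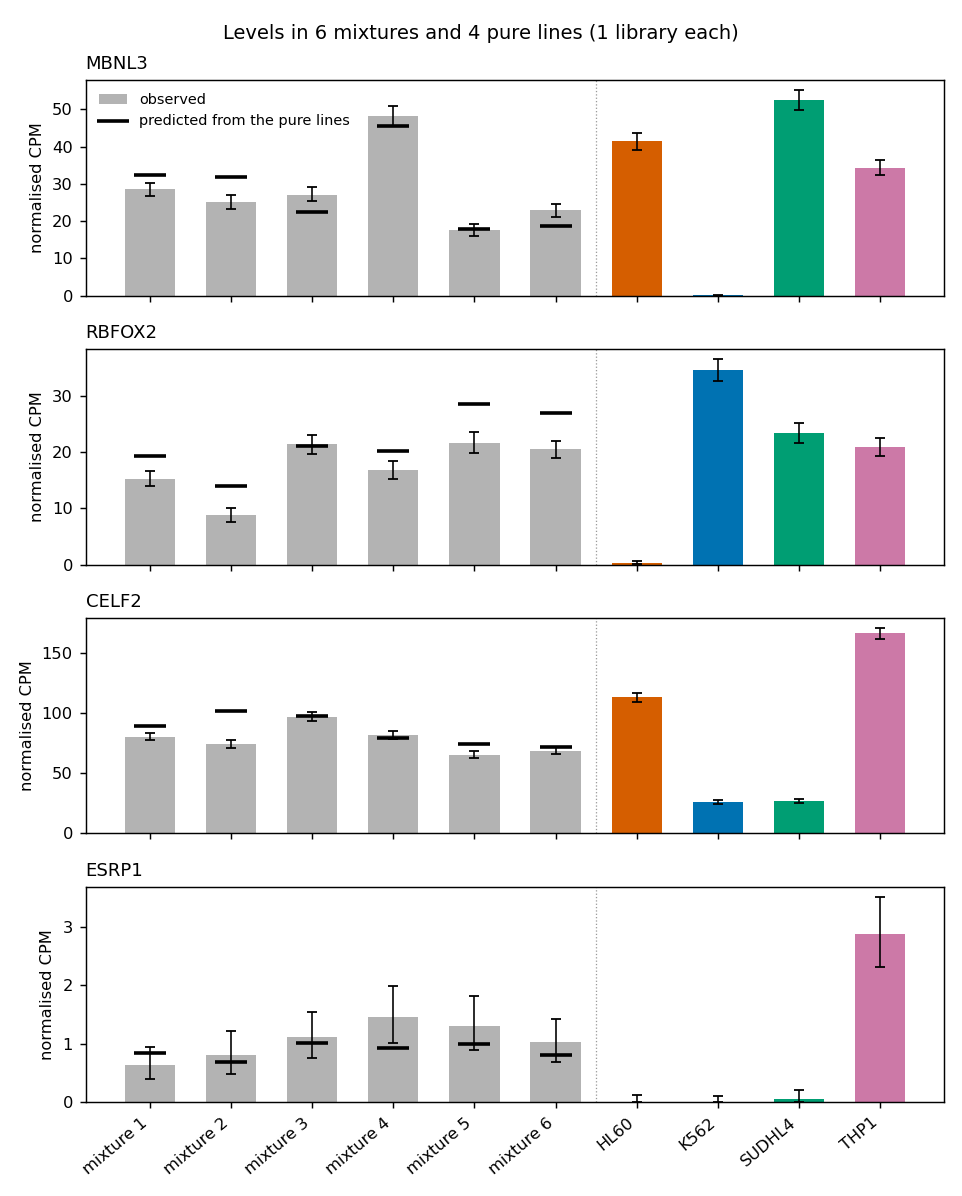
Levels in CPM of MBNL3, RBFOX2, CELF2 and ESRP1 in the 6 mixtures and the 4 pure lines (1 library each, error bars are 95% counting intervals, black bars are the levels predicted for the mixtures). MBNL3 is near 0 in K562 (0.0424 CPM), RBFOX2 is near 0 in HL60 (0.352 CPM), and CELF2 is highest in THP1 (166.5 CPM).

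Ratios of paralogs within a library do not depend on the scaling between libraries beyond the pseudocount of 1. CELF2 amounted to 475% of CELF1 in THP1 and 197% in HL60, against 39.9% in K562 and 39.1% in SUDHL4, a range of 3.54 on the log2 scale. MBNL3 was 0.0215% of MBNL1 in K562 and 13.7% to 19.7% in the other 3 lines, a range of 5.25. The other 4 pairs varied less: PTBP2 to PTBP1 by 1.48, PTBP3 to PTBP1 by 0.83, HNRNPH2 to HNRNPH1 by 0.77 and HNRNPLL to HNRNPL by 0.50. HNRNPH1, which binds G-rich RNA, had 168 CPM in HL60, 127 in K562, 159 in SUDHL4 and 108 in THP1. HNRNPH2 had 63.0, 72.6, 53.1 and 53.4 CPM in the same lines. HNRNPLL, known for its part in alternative splicing of PTPRC in lymphocytes, had 78.1, 98.1, 56.9 and 51.1 CPM in HL60, K562, SUDHL4 and THP1, with its lowest level in THP1. The HNRNPLL to HNRNPL ratio lay below that of every line in mixture 6, 39.7%, and above that of every line in mixture 1, 61.5% against 59.8% in THP1. The PTBP2 to PTBP1 ratio in mixture 4, 0.826%, lay above that of every line, the nearest being SUDHL4 at 0.701%. PTBP2 rested on 96 reads in mixture 4 and 84 in SUDHL4, and its counting intervals in these overlapped. Counting error of the ratios was not computed. Among the pools HNRNPH2 had 51.1, 60.7, 57.5, 63.2, 64.8 and 75.5 CPM in mixtures 1 to 6 and HNRNPLL had 68.2, 69.2, 71.4, 60.8, 78.3 and 64.1 CPM in mixtures 1 to 6.

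**Figure D4:**
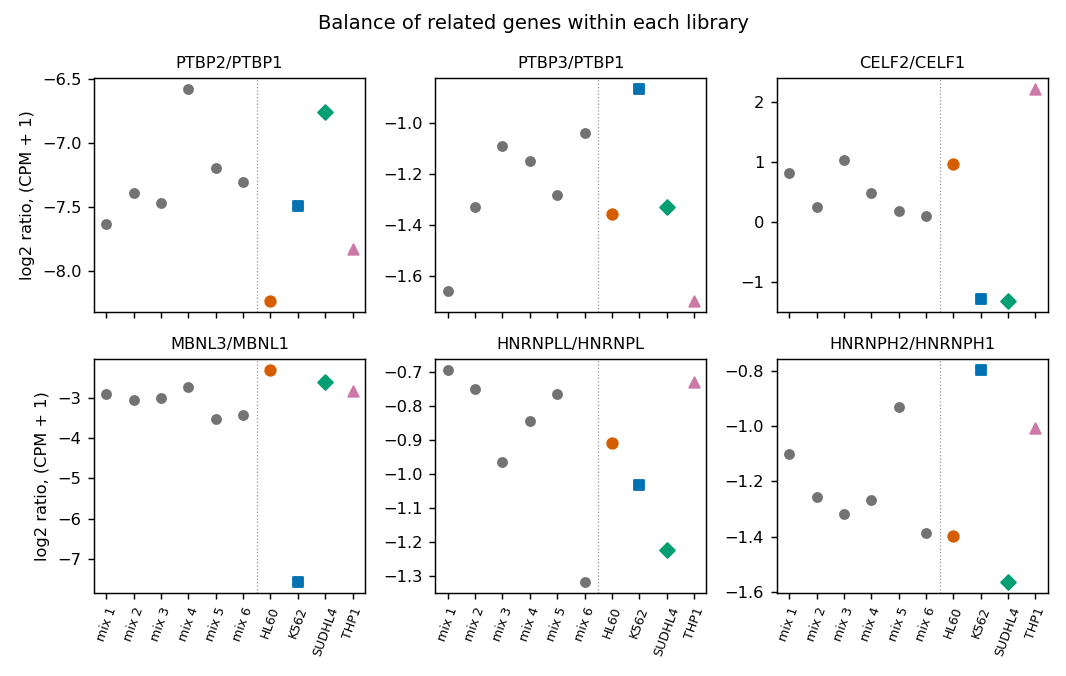
Paralog pairs as log2((CPM of the first + 1)/(CPM of the second + 1)) in each library (1 library per group, no error bars). CELF2 to CELF1 and MBNL3 to MBNL1 vary by 3.54 and 5.25 over the lines, the other 4 pairs by 1.48 or less.

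Other splicing genes, taken from lists of kinases and import factors of SR proteins, SR-related proteins, other regulators and the core spliceosome, gave 22 calls among 93 at the minimum. The background is that of all genes, 64.2%. Of the kinases and import factors 3 of 9 were called, of SR-related proteins 2 of 22, of other regulators 8 of 25 and of the core spliceosome 9 of 37. In the same order, THP1 was the lowest line for 77.8%, 72.7%, 52.0% and 54.1% of the genes at the minimum, against 65.8% of members. Their median differences in THP1 were -0.90, -0.62, -0.41 and -0.34, against -0.39 for members. A low level in THP1 was therefore not particular to the members. SRPK1, a kinase of SR proteins, stood at 125 CPM in THP1 against 254, 306 and 244 CPM in HL60, K562 and SUDHL4. CLK1, another such kinase with the widest span of its list, 1.42, had 18.0 CPM in K562 and 6.08 CPM in HL60. MBNL2, a muscleblind relative, had 31.0 CPM in K562, 20.3 in SUDHL4, 2.53 in HL60 and 0.168 in THP1. RAVER2, a partner of PTB, had 38.4 CPM in HL60 and none in SUDHL4, and KHDRBS3 had 22.2 CPM in HL60 and at most 1.48 CPM elsewhere. RBM47 had 11.8 CPM in THP1, 9.16 in K562, 0.520 in HL60 and none in SUDHL4. In the core, SF3A2 had 271 CPM in HL60, 238 CPM in THP1 and 87.4 CPM in K562. PRPF3 was called higher in THP1, at 142 CPM against 71.8, 71.2 and 46.2 CPM in HL60, K562 and SUDHL4. SF3B5 was called lower in SUDHL4, at 60.7 CPM against 134 to 182 CPM elsewhere. SNRPB, a shared small nuclear ribonucleoprotein subunit, had 310.5 CPM in HL60 and 105 CPM in THP1.

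The mixtures were set against predictions, each the pure profiles weighted by shares estimated from 100 signature genes per line. These genes included no member and no gene of the splicing, housekeeping or marker lists. Shares of HL60, K562, SUDHL4 and THP1 were 26.0%, 22.8%, 22.4% and 28.9% in mixture 1. In mixture 2 they were 48.7%, 20.7%, 6.70% and 24.0%, in mixture 3 25.3%, 39.6%, 0% and 35.1%, and in mixture 4 10.4%, 0.02%, 58.3% and 31.2%. Mixtures 5 and 6 were rich in K562, with 0.29%, 53.8%, 11.7% and 34.3% in mixture 5 and 7.63%, 53.1%, 11.6% and 27.7% in mixture 6. The labels name all 4 lines for every mixture, but by these shares mixtures 3, 4 and 5 held little or none of SUDHL4, K562 and HL60, respectively. The SUDHL4 marker MS4A1 had 0 CPM in mixture 3, the K562 marker HBE1 0.133 CPM in mixture 4 and the HL60 marker MPO 3.82 CPM in mixture 5. Observed and predicted log2(CPM + 1) differed by at least 0.5 in 2 of 228 member and mixture pairs, against 6.67% of all genes and mixtures. The prediction is a weighted mean of the line levels, so errors in the shares move it less for genes with small spans. Members had a median span of 0.86 against 1.69 for all genes, and the background was not matched for span or level. The lower rate of members is therefore no result about splicing genes. The background was uneven, 17.6% in mixture 2 and 11.7% in mixture 5 but 1.59%, 0.86%, 3.0% and 5.02% in mixtures 1, 3, 4 and 6.

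RBFOX2 was below prediction in mixture 2, at 8.77 CPM observed and 13.9 CPM predicted, a difference of -0.61. HNRNPH1 was above prediction in mixture 6, at 199 CPM observed and 129 CPM predicted, a difference of 0.63, and above all 4 pure lines. Mixture 5, with a similar estimated share of K562, had 124 CPM of HNRNPH1 observed and 124 CPM predicted. RBFOX2 differed from its prediction by -0.31, 0.02, -0.25, -0.38 and -0.38 in mixtures 1, 3, 4, 5 and 6, short of the threshold. The next lowest in mixture 2 was CELF2, 74.1 CPM observed and 102 CPM predicted, a difference of -0.46, which passed 0.5 under 3 of the alternatives. In 12 of the 228 pairs, 5.26%, the mixture lay outside the range of the pure lines, where 6.78% of all genes did. Among them were SRSF6 above in mixtures 2 and 6, and SRSF9 above in mixture 2 and below in mixture 3. HNRNPH2 lay below in mixture 1 and above in mixture 6. The counting intervals of SRSF6, of SRSF9 in mixture 3 and of HNRNPH2 overlapped those of the nearest line, and that of SRSF9 in mixture 2 did not. These places refer to the deposited scale and were not repeated under the other scalings. The library kit of each sample was not given, and its part in these values was not tested.

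**Figure D5:**
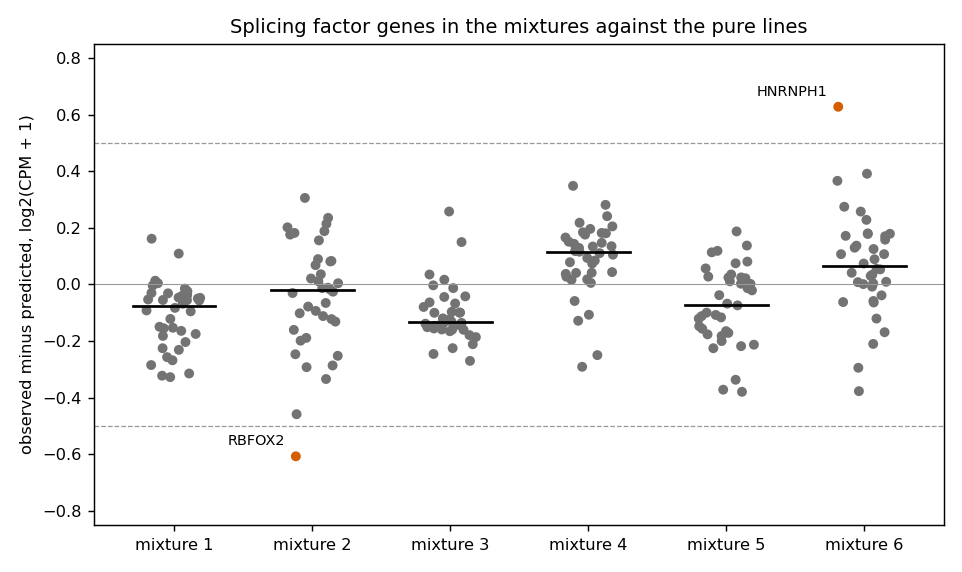
Observed minus predicted log2(CPM + 1) of the 38 members at the minimum in each of the 6 mixtures (1 library per mixture). Each point is a gene, solid bars are medians over genes and dashed lines mark 0.5 in either direction; RBFOX2 in mixture 2 (-0.61) and HNRNPH1 in mixture 6 (0.63) lie beyond them.

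Levels of the lines were also read back from the 6 mixtures alone, by non-negative least squares on the estimated shares. Of the 12 members with a span of at least 1, 9 had the same highest line as the pure libraries. The read-back level of RBFOX2 in HL60 was 0, also with any 1 mixture left out. That of MBNL3 in K562 was 0 with all mixtures and between 0 and 18.4 CPM with 1 left out. For HNRNPF, HNRNPH3 and HNRNPAB the read-back level in THP1 was 0 with all mixtures, where the pure library had 202, 79.3 and 299.6 CPM. With 1 mixture left out it reached up to 110.4 CPM for HNRNPF and 167 CPM for HNRNPH3, and stayed at 0 for HNRNPAB. The other members called lower in THP1, SRSF11 and HNRNPR, read back at 94.3 and 135 CPM, above the 60.0 and 111 CPM of the pure library. With 1 left out they reached up to 237 and 437 CPM. Read-back levels of 0 in THP1 were also found for members not called lower there, among them HNRNPA1, HNRNPA2B1 and SRSF3. The estimated share of THP1 varied only between 24.0% and 35.1% over the pools. The read-back rests on the same estimated shares, so it is not independent of the pure libraries.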

How the data were processed

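RNA was measured in 10 bulk libraries, 1 per group: mixtures 1 to 6 and the pure lines HL60, K562, SUDHL4 and THP1. Per the labels' protocols, libraries were made with either of 2 stranded kits, and the kit of each sample is not given. Build hg19 and, without saying which step each did, featureCounts, HISAT2 and Cell Ranger ARC 2.0.0 are recorded per the submitters' processing notes. Whether counting used strand is not stated. The deposited signal is on a reads-per-million scale: in every library, 100% of the authors' values equal a whole number of reads plus 0.5, times 1 constant, within 0.01 reads, and 0 where no read was counted. How libraries were scaled is not stated either. The design had assumed plain CPM. No count model was used, since there were no replicates.

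Levels were compared as log2(CPM + 1). Genes had to reach 5 CPM in at least 1 pure line, and a call needed a difference of 1 on the log2 scale. Intervals for levels are exact Poisson and those for ratios are exact binomial, at 95%, and cover counting error only. Mixture predictions used non-negative least squares on 100 signature genes per line, each divided by its highest pure level, with coefficients rescaled to sum to 1. Members and the genes of the splicing, housekeeping and marker lists were left out of the signature genes. Exon lengths, overlaps and gene positions came from GENCODE 29 (GRCh38), promoters from RefSeq. Alternatives were other scalings (total reads, the geometric mean of 23 housekeeping genes, median of ratios), pseudocounts, minimum levels and thresholds. Values for every library are given for members with a span of at least 1, for members of the paralog pairs, and for the highest SRSF and HNRNP gene, and up to 4 genes with the largest span were eligible for naming in each other list. The pair of ESRP1 and ESRP2 was not computed. Members, lists and rules were chosen with earlier results of these data known, and support nothing by themselves. Calculations used Python 3.11.15, numpy 2.4.6, pandas 2.3.3 and scipy 1.17.1, and were tested on simulated data.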

Additional observations from a re-analysis of the deposited data

How the results depend on the processing

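Of the summary results, 43 of the alternative values moved by no more than the allowed margin and 19 moved further. Members differing between lines numbered 8, against 2 with a 4-fold threshold and 21 with a 1.5-fold threshold, where 33.2% and 86.9% of all genes were called. They numbered 4 (HNRNPH3, HNRNPR, MBNL3 and RBFOX2) when a line had to differ from its nearest neighbour, where 43% of all genes were called. In the other splicing lists the count was 22, against 14 under housekeeping scaling, 4 at 4-fold, 59 at 1.5-fold and 8 against the nearest line. The share of all genes called was 64.2% by the main rule and 62.9% under housekeeping scaling, and the other shares are those just given. The median span of members, 0.86, was 0.84 under total-read scaling, 0.76 under housekeeping and under median-of-ratios scaling, and 0.90 with a pseudocount of 0.1. The range of the SRSF sum over the lines, 0.47 on the log2 scale, was 0.39, 0.24 and 0.25 under total-read, housekeeping and median-of-ratios scaling, and that of the HNRNP sum, 0.57, was 0.50, 0.34 and 0.35. The range of MBNL3 to MBNL1, 5.25, was 10.42 from the reads with no pseudocount. The number of members off their predicted mixture level, 2, was 0 with a threshold of 1 on the log2 scale, where 0.49% of all genes were called; the member called in mixture 2 was CELF2 instead of RBFOX2 under unscaled least squares, and both were called under housekeeping and median-of-ratios scaling. Leaving out each mixture in turn, 7 to 10 of the 12 members kept the highest line of the pure libraries, against 9 with all mixtures. The cause of these shifts was not tested. None of the members' called differences between lines changed sign under another scaling, but small ones did: HNRNPC in HL60 was 0.27 as deposited and -0.02 under housekeeping scaling, and the median difference of all genes in HL60 was 0.08 and -0.19. THP1 remained the line with the lowest level for 25, 23 and 20 of 38 members under total-read, housekeeping and median-of-ratios scaling and for 26 of 41 with no minimum level, a count chosen after seeing the data. Housekeeping scaling put the median difference of all genes in THP1 at 0.01 in place of -0.16, and that of members at -0.21 in place of -0.39. No paired analysis was possible because each group had 1 library. Levels under 1 CPM rest on few reads, and 1 library per group leaves variation between cultures unmeasured.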
